A study of Oryza sativa Japonica Group with 6 samples.

Results

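Antipodal cells belong to the embryo sac, the female gametophyte of flowering plants, and sit at its chalazal end, opposite the egg cell and the synergids. The transcripts that gave the highest signal in these cells were taken from 3 arrays of rice antipodal cells among the 6 arrays of the study. Within each of these arrays the 57258 probe sets that are not controls were ranked by signal, rank 1 being the brightest. The shared top set held 369 of the 57258 (0.644%): the probe sets within the brightest 1% (572 probe sets) on all 3 antipodal arrays.

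The study measured antipodal cells and synergid cells of wild-type Oryza sativa ssp. japonica, cultivar Katy, grown in a greenhouse, with 3 arrays of each cell type. Both cell types were dissected by hand, without enzymes, from florets at anthesis, the antipodal cells at the chalazal end of the embryo sac and the synergids at the micropylar end. RNA was amplified in 2 rounds of cDNA synthesis, labelled with biotin and hybridised to the Affymetrix rice array. The sample titles call the 3 arrays of each cell type biological replicates. No label ties a replicate to its own plants or day, so part of the spread between arrays may be technical. The protocol for labelling describes collections of egg cells and zygotes only, so how many antipodal cells stand behind an array is unknown here.

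As background, antipodal cells of grasses often multiply after the embryo sac has formed and are rich in ribosomes, mitochondria, plastids and endoplasmic reticulum. They lie beside the maternal tissue through which nutrients reach the embryo sac and are commonly described as transfer and nursing cells. In most cells the most abundant messenger RNAs encode ribosomal proteins, translation factors, ubiquitin, chaperones, the cytoskeleton and the enzymes of central metabolism.

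A signal here is the MAS5 intensity of a probe set, a linear value that each array's own scaling sets to a common level. It depends on how well the probes bind and on which related transcripts they also bind, so a rank orders signals and not numbers of transcripts. Fewer cells of a type and less RNA per cell cannot be told apart in such a measurement. On the antipodal arrays the actin control at the 3′ end gave 87.8 to 689 times the signal of the one at the 5′ end, and on the synergid arrays 77.9 to 238 times, so for this control signal falls off strongly with distance from the 3′ end. Antipodal array 2 stood apart: its median signal was 170, against 63.5 on array 1 and 54.4 on array 3, with 46.5 to 67.1 on the synergid arrays. Its hybridisation spike controls (18 probe sets) had a geometric mean signal of 59283, against 12372 on array 1 and 6131 on array 3, with 6503 to 10866 on the synergid arrays. On array 2 the GAPDH control at its 3′ end gave 141 times the signal of the one in the middle. The ratio was 17.5 on array 1, 12.6 on array 3 and 8.30 to 14.7 on the synergid arrays. For actin it was 17.8 on array 2, against 12.0 and 8.41 on arrays 1 and 3, with 6.97 to 9.58 on the synergid arrays. The 3′ to 5′ ratios of array 2 went the other way. For GAPDH this ratio was 57.3 on array 2, against 207 and 133 on arrays 1 and 3, with 89.6 to 236 on the synergid arrays. For actin it was 87.8 on array 2, against 221 and 689 on arrays 1 and 3. Synergid array 1 shared 445 of its brightest 572 probe sets with antipodal array 3 (77.8%) and 422 with antipodal array 1 (73.8%), while antipodal arrays 1 and 2 shared 400 with each other (69.9%). The cell types therefore did not separate cleanly at the top of the ranking.

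None of the 3 given markers of antipodal cells was in the shared top set; RAB16D reached the brightest 1% on antipodal array 1 alone. They were chosen on these arrays, so their levels describe the samples and are not independent evidence of the label. RAB16D (LOC4350451), a dehydrin gene induced by drought and abscisic acid, had signals of 24084, 4332 and 5869 on antipodal arrays 1, 2 and 3, against 4047, 432 and 698 on synergid arrays 1, 2 and 3. Every antipodal value exceeded every synergid value, and the antipodal ranks were 223, 2028 and 1696. OsAMT1 (LOC4336365), an ammonium transporter gene, had 3063, 1217 and 2393 on the antipodal arrays, against 773, 246 and 435 on the synergid arrays, with antipodal ranks of 3582, 7087 and 4649. The salT gene (LOC4326471) encodes a mannose-binding lectin induced by salt; it had 3443, 3360 and 366 on the antipodal arrays, against 188, 22.2 and 218 on the synergid arrays. On this brighter probe set of salT the groups did not overlap. Antipodal array 3, at rank 13979, nevertheless lay nearer to the synergid arrays than to the other antipodal arrays. The second probe sets of OsAMT1 and salT were dim, at 20.4 to 43.8 and at 9.53 to 688 on the antipodal arrays.

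Markers of neighbouring tissues were counted on the same arrays. Of 4 MADS-box genes of the ovule's sporophytic tissue, 0 were within the brightest 5% (2862 probe sets) on all 3 antipodal arrays, and their summed signal was 2551 to 4322, against 6236 to 11354 on the synergid arrays. Of 9 endosperm storage and starch genes, 0 were within the brightest 5%, with a summed signal of 1491 to 2514 on the antipodal arrays and 1438 to 2058 on the synergid arrays. The epidermal homeobox genes had 2 of 5 within the brightest 5% on both cell types' arrays, Roc5 and ROC1, with a summed signal of 13515 to 23315 on the antipodal arrays and 21127 to 27195 on the synergid arrays. The green tissue list had 1 of 5, CAB2R (LOC4324599), a chlorophyll a/b-binding protein gene, at 5581, 11253 and 8739 on the antipodal arrays and 4363, 3742 and 8698 on the synergid arrays. The 4 genes chosen on these arrays for synergids summed to 1664 to 3058 on the antipodal arrays, against 39159 to 82907 on the synergid arrays. The part of neighbouring cells in the antipodal ranking was not tested.

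The shared top set held 64.5% of each antipodal array's brightest 1%. The corresponding synergid set held 390 probe sets, 68.2% of each array's brightest 1%. Of the 369 antipodal members, 299 matched a single gene, 7 matched several and 63 had no gene in the annotation used here. The 299 stood for 280 of the 17905 genes on the array (1.56%), and 67 of the 280 had an informative name, while the rest are known by a locus or clone number. Probe sets designed from predicted genes made up 35 of the 369 (9.49%), against 44.5% of all non-control probe sets and 18 of the 390 synergid members (4.62%). Suffixes that mark probes shared between transcripts were on 83 of the 369 (22.5%), against 17.4% of all. At the threshold, the dimmest of the 3 ranks was 569 for OsAffx.4253.1.S1_s_at and 572 for LOC4346085 just inside, and 573 for LOC9271310 and 574 for LOC4332222 just outside.

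Different probe sets of a gene often disagreed. Of the 280 genes, 93 had more than 1 probe set; 25 of these had all of them within the brightest 5% by mean rank, and 27 had at least 1 in the dimmer 50% of the array. A gene below is represented by its brightest probe set over the antipodal arrays, which favours the genes with several.

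Signal was concentrated in few probe sets. The brightest 1% held 31.0%, 38.2% and 29.7% of the summed signal on antipodal arrays 1, 2 and 3, a mean of 33.0% ± 4.57 (SD, n = 3), against 27.7%, 29.9% and 29.0% on synergid arrays 1, 2 and 3, a mean of 28.9% ± 1.08 (SD, n = 3). Antipodal array 2 was the highest of the 6, and antipodal arrays 1 and 3 lay close to the synergid range. The first 100 probe sets alone held 10.7%, 18.7% and 9.86% on the antipodal arrays and 8.11% to 10.5% on the synergid arrays. The brightest probe set reached 93646, 305114 and 81528 on antipodal arrays 1, 2 and 3, which was 1.63, 2.85 and 1.71 times the signal at rank 30. On the synergid arrays the same ratio was 1.51 to 1.60.

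**Figure D1:**
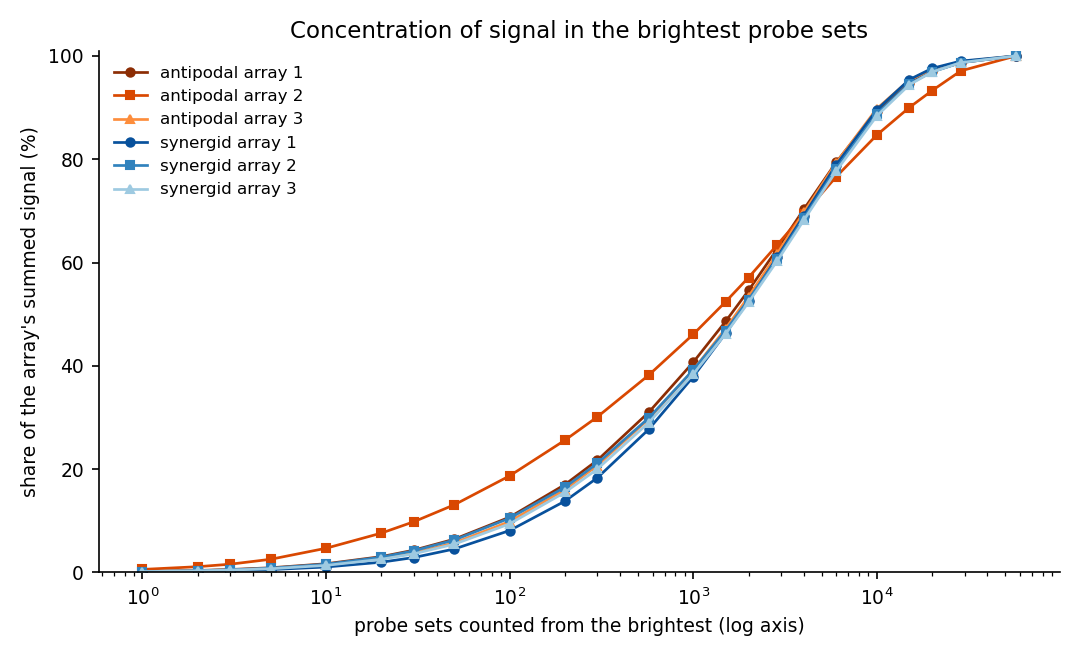
Share of each array's summed signal (y axis, percent) held by its brightest probe sets, counted from the brightest (x axis, log scale), for the 3 antipodal and the 3 synergid arrays. Antipodal array 2 runs above the rest at the bright end, with 18.7% in its first 100 probe sets against 8.11% to 10.7% on the other arrays.

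Among the 40 probe sets with the lowest mean rank over the antipodal arrays, 31 had 1 gene, but only 9 of these were named; the other 9 had no gene in the annotation used here. The lowest mean rank of all belonged to OsAffx.4582.1.S1_x_at, a predicted-gene probe set with no gene, at 87200, 275107 and 81528 on antipodal arrays 1, 2 and 3, against 49073, 48433 and 25002 on synergid arrays 1, 2 and 3. It ranked 3, 2 and 1 on the antipodal arrays and 2, 42 and 188 on the synergid arrays. LOC4352868 followed at 79052, 305114 and 74045 on the antipodal arrays, against 47675, 83314 and 67625 on the synergid arrays. It was the brightest probe set of antipodal array 2 and of synergid array 2. Neither ID is annotated with a role here.

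The other locus-only genes in order of mean rank were LOC4333690, LOC4328121, LOC9266083, LOC4325478, LOC4324576, LOC4352560, LOC4333306, LOC4328390, LOC4325282, LOC4329423, LOC4344581, LOC4327414, LOC4330533 and LOC4329042. Their antipodal mean ranks ran between 7 and 37. LOC4324576 was the exception on the synergid side: it was the brightest probe set of antipodal array 1 and had 93646, 103298 and 60289 on antipodal arrays 1, 2 and 3, against 46390, 3884 and 4479 on synergid arrays 1, 2 and 3. Synergid array 1 thus resembled the antipodal arrays for this gene, and synergid arrays 2 and 3 did not.

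The remaining probe sets without a gene among the first 10 were Os.12237.1.S1_a_at, Os.48500.1.A1_s_at, OsAffx.12675.1.S1_at, Os.38457.1.S1_s_at, Os.8767.1.S1_at, OsAffx.32287.1.S1_x_at, OsAffx.28903.2.S1_at, Os.12237.2.S1_a_at and Os.39054.1.A1_s_at. OsAffx.12675.1.S1_at had 82127, 129956 and 60487 on the antipodal arrays, against 43329, 10331 and 8557 on the synergid arrays. OsAffx.28903.2.S1_at had 51796, 109964 and 40276 on the antipodal arrays, against 25475, 7234 and 4973 on the synergid arrays. In both, the groups did not overlap and synergid array 1 was the brightest of its group.

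All of the first 25 named genes were in the shared top set, which follows from their low mean ranks, between 7 and 181. Of these 25, 21 were also among the first 25 named genes of the synergid arrays ranked the same way. The highest synergid mean rank among them was 262. Their order therefore describes transcripts bright in both cell types.

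**Figure D2:**
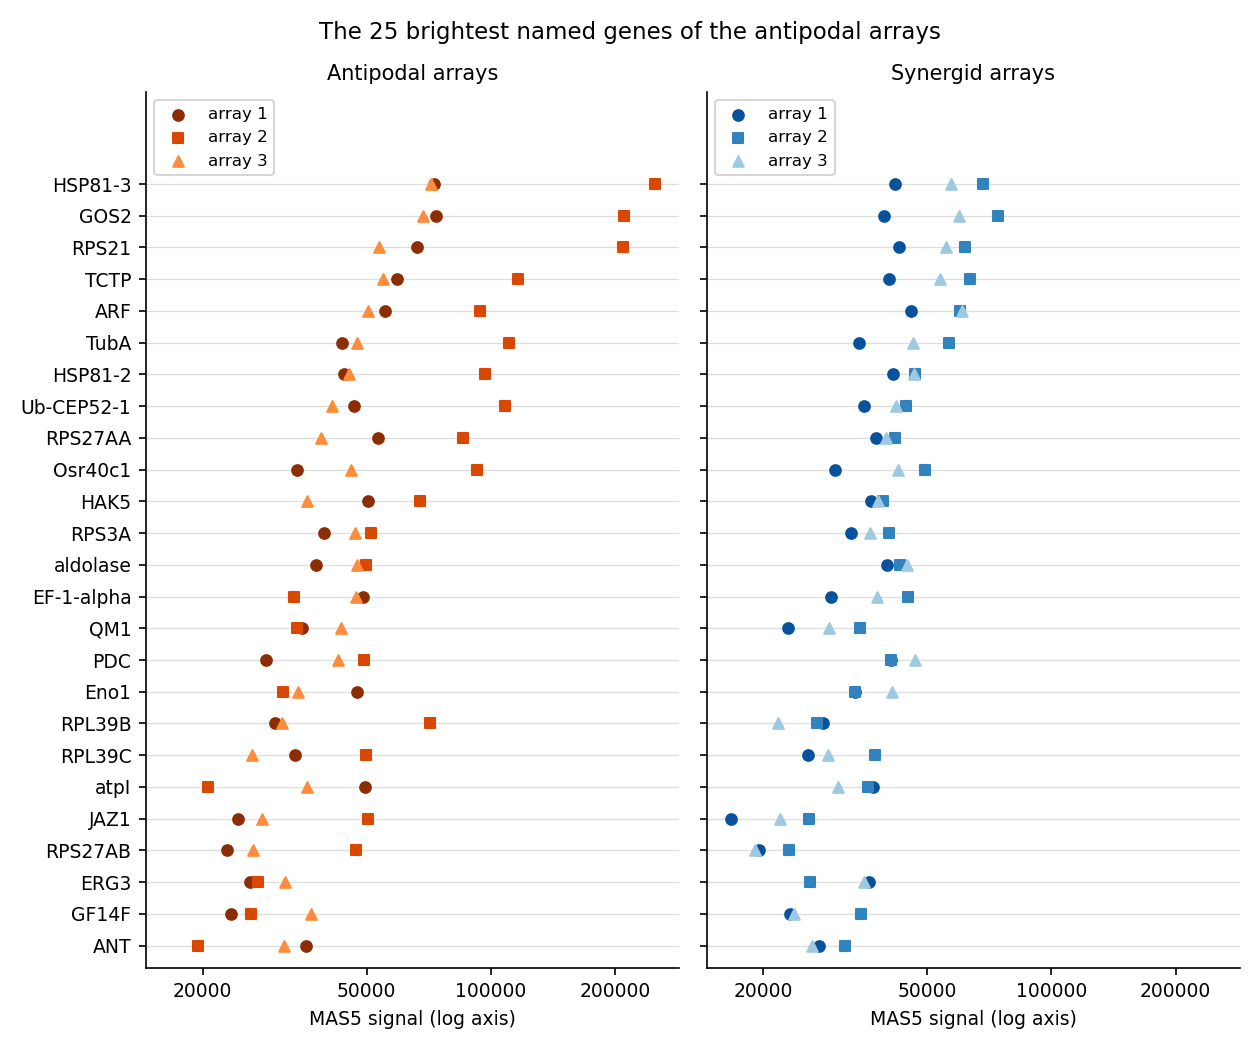
Signal (x axis, MAS5 units, log scale) of the 25 named genes with the lowest mean rank over the antipodal arrays, 1 row per gene, with the 3 antipodal arrays on the left and the 3 synergid arrays on the right; points are single arrays. The brightest genes, HSP81-3, GOS2 and RPS21, sit between 208806 and 249870 on antipodal array 2 and between 53570 and 73453 on antipodal arrays 1 and 3.

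Of the 38 lists of gene families and functions, the 2 on translation had the largest share of bright genes. Ribosomal proteins form the small and large subunits of the ribosome, and 23 of the 27 named ribosomal protein genes (85.2%) were within the brightest 5% on all 3 antipodal arrays, against 8.82% of all 17905 genes and 13.2% of the 2450 named genes. The synergid count was also 23. Their median of the mean rank was 382, against 12124 over all genes, and 14 were in the shared top set. RPS21 (LOC4332813), a small-subunit protein gene, had 66173, 208806 and 53570 on antipodal arrays 1, 2 and 3, against 42740, 61644 and 55504 on synergid arrays 1, 2 and 3. RPS27AA (LOC4326977), which encodes ubiquitin fused to a small-subunit protein, had 53284, 85676 and 38749 on the antipodal arrays, against 37586, 41642 and 39759 on the synergid arrays. RPS3A (LOC4331966), also named CYC07, had 39354, 51348 and 46838 on the antipodal arrays, against 32652, 40468 and 36324 on the synergid arrays. These 3 genes overlapped between the cell types. Here and throughout, overlap only describes the values of the gene or probe set named. The share of all genes without overlap was not counted. A gene without overlap is therefore not shown to differ between the cell types. The large-subunit genes QM1, RPL39B and RPL39C were also among the first 25, with antipodal signals between 26423 and 71035.

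Translation factors carry initiator and aminoacyl transfer RNAs and assemble the ribosome on the message, and 9 of 14 (64.3%) were within the brightest 5%, the same count as on the synergid arrays. GOS2 (LOC4343445), which encodes the initiation factor eIF1, had 73453, 210224 and 68418 on antipodal arrays 1, 2 and 3, against 39350, 74314 and 59632 on synergid arrays 1, 2 and 3. TCTP (LOC4351061), a growth-related protein that acts on elongation and cell proliferation in other eukaryotes, had 59375, 116150 and 54770 on the antipodal arrays, against 40405, 63472 and 53567 on the synergid arrays. EF-1-alpha (LOC4331810), which delivers aminoacyl transfer RNA, was lowest on array 2, with 48980, 33327 and 47147 on the antipodal arrays and 29196, 44842 and 37694 on the synergid arrays. All 3 genes overlapped between the cell types. Array 2 had the highest antipodal signal for GOS2 and TCTP, but by rank both were brightest on array 3. The EF-1-alpha probe set can bind near-identical copies of the gene, so this level is uncertain.

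Ubiquitin, the tag that sends proteins to the proteasome, is made as fusions to itself or to ribosomal proteins, and 5 of 11 ubiquitin and ubiquitin-like genes (45.5%) were within the brightest 5% on both cell types' arrays. Ub-CEP52-1 (LOC4332169), also named UBQ1, had 46675, 108129 and 41254 on antipodal arrays 1, 2 and 3, against 35097, 44359 and 42034 on synergid arrays 1, 2 and 3. RPS27AB (LOC4337883) had 22976, 47229 and 26443 on the antipodal arrays, against 19583, 23153 and 19076 on the synergid arrays. Both overlapped between the cell types and were highest on antipodal array 2. Ubiquitin genes are nearly identical in part of their sequence, so signal can be shared between them. Of 16 genes for subunits of the proteasome, the protease that degrades tagged proteins, 7 (43.8%) were within the brightest 5% on the antipodal arrays and 8 on the synergid arrays, but 0 were in the shared top set. The brightest was OsPAE1 (LOC4350922), at 11905, 6233 and 12963 on the antipodal arrays and 10095, 6381 and 7012 on the synergid arrays. OsPBC1 and OsPAG1 came next. In autophagy, which delivers cell contents to the vacuole, 2 of 7 genes were bright. APG8C (LOC4344857), the ubiquitin-like protein that is attached to autophagosome membranes, had 31192, 33622 and 18594 on the antipodal arrays, against 16796, 15618 and 12939 on the synergid arrays, with no overlap. APG8B and APG4B were dimmer, between 3294 and 7958 on the antipodal arrays.

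Cytosolic chaperones were uneven. Only 6 of 34 heat shock protein and chaperone genes (17.6%) were within the brightest 5% on the antipodal arrays, against 7 on the synergid arrays, yet 4 were in the shared top set. HSP81-3 (LOC4347405), a gene of the HSP90 chaperone family, was the first of the named genes, with 72953, 249870 and 71734 on antipodal arrays 1, 2 and 3 against 41714, 68093 and 57058 on synergid arrays 1, 2 and 3. HSP81-2 (LOC4347402), its neighbour in the same family, had 44083, 96577 and 45408 on the antipodal arrays, against 41394, 46580 and 46527 on the synergid arrays. The antipodal values of HSP81-3 all lay above its synergid values, although arrays 1 and 3 did so narrowly, while HSP81-2 overlapped. Other probe sets on the array are paired with both genes at once, so their levels are uncertain. The small heat shock protein gene hsp17.9 (LOC4332357) had 36907, 23901 and 14384 on the antipodal arrays, against 9981, 10521 and 10343 on the synergid arrays, without overlap but with a wide spread between the antipodal arrays.

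The endoplasmic reticulum folds secreted proteins, and 17 of 39 genes of its folding and secretion list (43.6%) were within the brightest 5% on the antipodal arrays, against 13 (33.3%) on the synergid arrays. CRO1 (LOC4342826), a calreticulin gene, had 25008, 34502 and 18685 on antipodal arrays 1, 2 and 3, against 15557, 13247 and 9591 on synergid arrays 1, 2 and 3, with no overlap. OsPDIL2-1 (LOC4337858), a protein disulfide isomerase gene, had 37296, 21416 and 13866 on the antipodal arrays, against 16127, 9245 and 8867 on the synergid arrays. BIP1 (LOC4328075), the HSP70 chaperone of the endoplasmic reticulum, had 30838, 15683 and 17228 on the antipodal arrays, against 18797, 11538 and 13722 on the synergid arrays. OsPDIL2-1 and BIP1 overlapped between the cell types through synergid array 1.

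**Figure D3:**
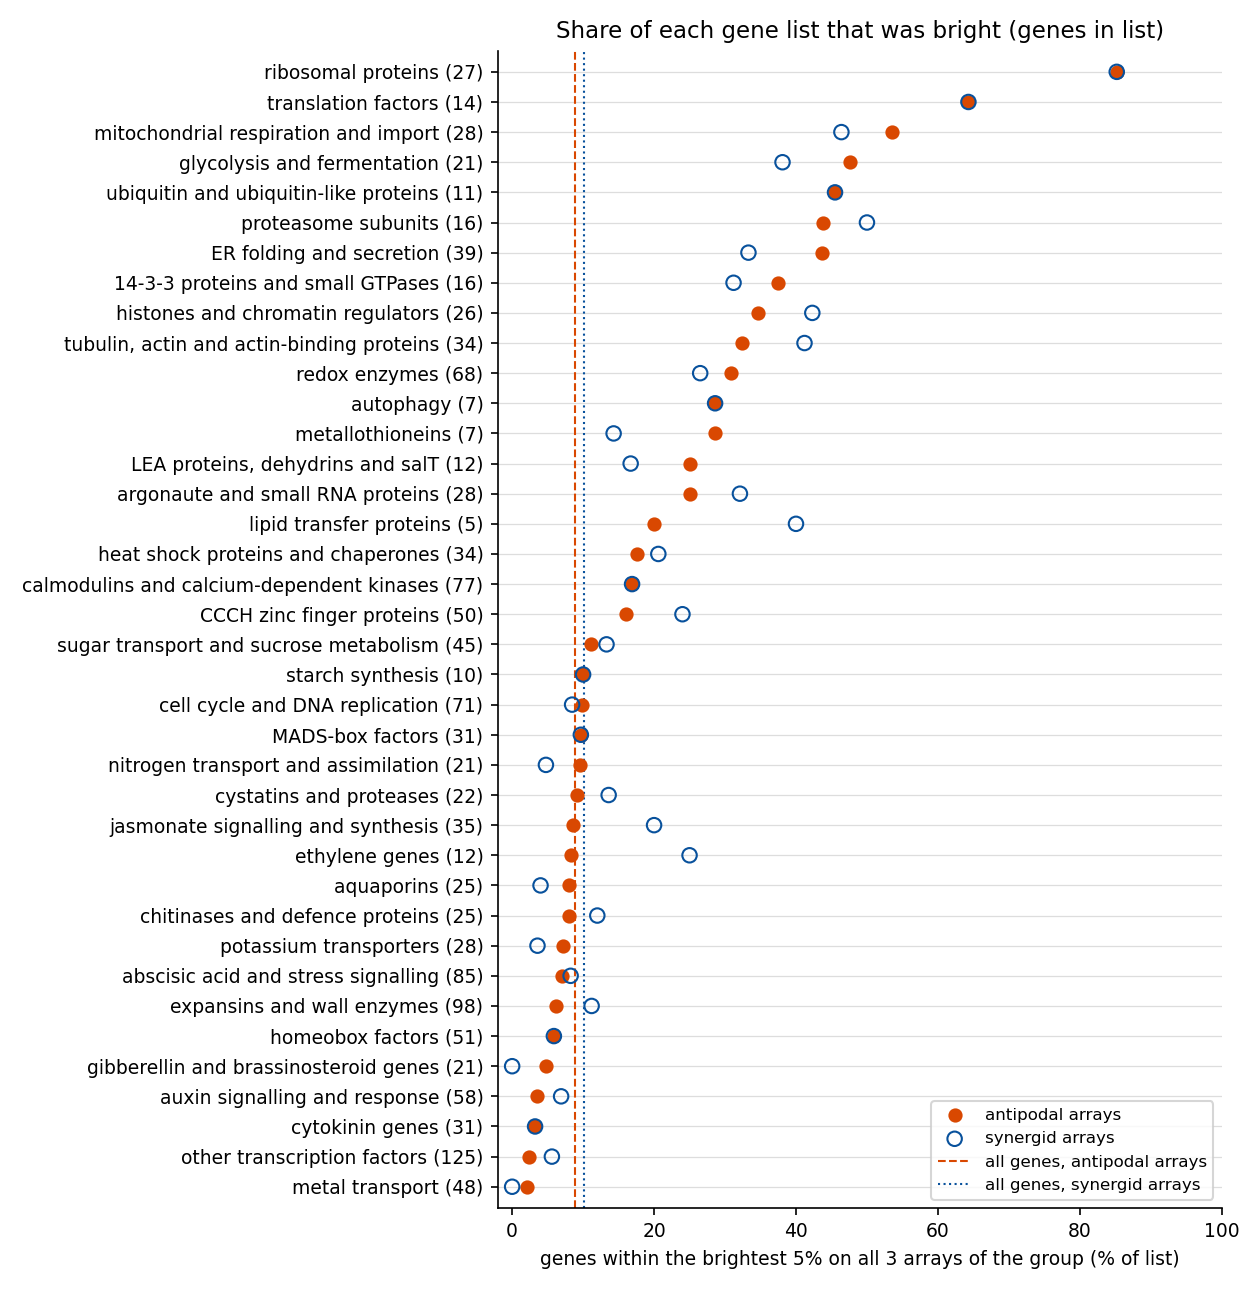
Share of the genes in each of 38 family lists that lay within the brightest 5% on all 3 arrays of a group (x axis, percent), with antipodal arrays as filled points and synergid arrays as open circles; the number of genes in a list is in brackets and the lines give all genes, 8.82% and 10.1%. Ribosomal proteins (85.2%) and translation factors (64.3%) stand at the top and metal transport (2.08%) at the bottom on the antipodal arrays.

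The cytoskeleton list had 11 of 34 genes (32.4%) within the brightest 5% on the antipodal arrays and 14 on the synergid arrays. TubA (LOC4350197), an alpha-tubulin gene, had 43538, 110872 and 47410 on antipodal arrays 1, 2 and 3, against 34188, 56296 and 46279 on synergid arrays 1, 2 and 3. ACT1 (LOC4333919), an actin gene, was lowest on array 2, with 26718, 21319 and 34828 on the antipodal arrays and 26295, 41861 and 25865 on the synergid arrays. The beta-tubulin gene TUB5 was at 17645 to 22868 on the antipodal arrays and 24293 to 26867 on the synergid arrays. TubA and ACT1 overlapped between the cell types, whereas every antipodal value of TUB5 lay below every synergid value.

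Of 21 glycolysis and fermentation genes, 10 (47.6%) were within the brightest 5% on the antipodal arrays, against 8 on the synergid arrays. With the median over a gene's probe sets the antipodal count was 5, and aldolase, PDC and Eno1 left the first 25 named genes. The aldolase gene FBA3 (LOC4325027), named aldolase in the plot, encodes the enzyme that splits fructose bisphosphate and had 37691, 49832 and 47262 on antipodal arrays 1, 2 and 3, against 39943, 43026 and 44699 on synergid arrays 1, 2 and 3. PDC (LOC4332519), also named PDC2, encodes pyruvate decarboxylase, the first step of ethanol fermentation, and had 28554, 49166 and 42497 on the antipodal arrays, against 40879, 40864 and 46595 on the synergid arrays. The enolase gene Eno1 (LOC4348176) had 47425, 31304 and 34052 on the antipodal arrays, against 33403, 33436 and 41048 on the synergid arrays. None of these 3 genes separated the cell types. Mitochondrial respiration and import had 15 of 28 genes (53.6%) within the brightest 5%, against 13 on the synergid arrays, but only 2 in the shared top set. SDH6, for a subunit of succinate dehydrogenase, was at 15428 to 16817 on the antipodal arrays and at 9023 to 13102 on the synergid arrays. TOM20 and TIM13 encode parts of the protein import machinery; TOM20 was at 12326 to 16929 on the antipodal arrays and 18552 to 19749 on the synergid arrays, and TIM13 was at 10532 to 15409 on the antipodal arrays and 6385 to 8298 on the synergid arrays. The order of the cell types was thus opposite for TOM20 and TIM13. The plastid-encoded ATP synthase gene atpI (LOC3131393) had 49574, 20583 and 35923 on the antipodal arrays, against 37011, 35809 and 30393 on the synergid arrays, from a probe set whose suffix marks probes shared between transcripts.

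Redox enzymes had 21 of 68 genes (30.9%) within the brightest 5% on the antipodal arrays, against 18 on the synergid arrays. The glutaredoxin gene GRXC6 (LOC4336354) had 23392, 31682 and 23688 on antipodal arrays 1, 2 and 3, against 16964, 25668 and 19109 on synergid arrays 1, 2 and 3. GLYI-11 (LOC4344858), a glyoxalase gene that acts on the toxic by-product methylglyoxal, had 29942, 20148 and 25417 on the antipodal arrays, against 21025, 17328 and 17286 on the synergid arrays. APX2 (LOC4344397), a cytosolic ascorbate peroxidase gene that removes hydrogen peroxide, had 23342, 25379 and 21991 on the antipodal arrays, against 12650, 10224 and 13888 on the synergid arrays. Of these 3, APX2 had the closest antipodal values and groups that did not overlap, while GRXC6 and GLYI-11 overlapped. Whether APX2 differs between the cell types was not tested. Metallothioneins, small metal-binding proteins, had 2 of 7 genes bright, MT-2 and MT2C, at 5742 to 18483 on the antipodal arrays and 3514 to 9770 on the synergid arrays, while MT-1 was at 283 to 1322 on the antipodal arrays.

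Chromatin and small RNA genes were above both the 8.82% of all genes and the 13.2% of named genes. Histones and chromatin regulators had 9 of 26 genes (34.6%) within the brightest 5% on the antipodal arrays, against 11 on the synergid arrays. MSI1 (LOC4333540), a WD40 protein of chromatin assembly and Polycomb complexes, had 14956, 27874 and 19622 on antipodal arrays 1, 2 and 3, against 13227, 12497 and 10019 on synergid arrays 1, 2 and 3. The Polycomb gene fie (LOC4344620) was steadier, at 17272, 14709 and 17320 on the antipodal arrays and 14491, 18217 and 13668 on the synergid arrays. MSI1 did not overlap between the cell types and fie did. The histone gene H2B.5 was at 12382 to 39295 on the antipodal arrays and 14828 to 20210 on the synergid arrays. Argonautes bind small RNAs and guide gene silencing, and their list had 7 of 28 genes (25.0%) bright, against 9 on the synergid arrays. AGO1B (LOC9270411) had 22709, 24544 and 35135 on the antipodal arrays, against 35019, 41601 and 37289 on the synergid arrays. Its highest antipodal value, on array 3, lay within the synergid range. AGO4A, of the pathway that directs DNA methylation, was at 18458 to 31273 on the antipodal arrays and 20886 to 30105 on the synergid arrays. AGO1A was at 9110 to 11133 on the antipodal arrays. The cell cycle and DNA replication list had 7 of 71 genes bright (9.86%), close to the 8.82% of all genes. The list lay below the 13.2% of named genes and had 11 bright with antipodal array 1 left out. Its first members were SMR1 and EL2, which encode inhibitors of cyclin-dependent kinases, and OsRPA14, of the single-strand DNA-binding complex. SMR1 was at 13698 to 21469 on the antipodal arrays and 14978 to 30734 on the synergid arrays.

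Stress and abscisic acid genes were mixed. The list of LEA proteins, dehydrins and salT had 3 of 12 genes bright (25.0%), against 2 on the synergid arrays. Osr40c1 (LOC4332715), a lectin-domain protein gene induced by salt and abscisic acid, had 33861, 92659 and 45884 on antipodal arrays 1, 2 and 3, against 29918, 49357 and 42410 on synergid arrays 1, 2 and 3. Osr40c1 was highest on antipodal array 2 and overlapped between the cell types. The dehydrin gene Dhn1 (LOC4330265) had 14054, 11828 and 15734 on the antipodal arrays, against 22026, 16905 and 21234 on the synergid arrays, so that every antipodal value lay below every synergid value. RAB16D, the marker given above, was the third bright gene of the list. The abscisic acid and stress signalling list had 6 of 85 genes bright (7.06%), near the 8.82% of all genes. This share was below the 13.2% of named genes. The list was led by OsSAP8, P5CS1 and OsPP2C16, with antipodal signals between 4421 and 21158.

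Other hormone lists were near or below the 8.82% of all genes, with single bright genes. All of them lay below the 13.2% of named genes. Jasmonate had 3 of 35 genes bright (8.57%) on the antipodal arrays, 5 with antipodal array 2 left out, and 7 on the synergid arrays. JAZ1 (LOC4337240), also named EG2, encodes a repressor of jasmonate responses and had 24387, 50275 and 27851 on antipodal arrays 1, 2 and 3, against 16703, 25769 and 22007 on synergid arrays 1, 2 and 3. It overlapped between the cell types and was highest on antipodal array 2. JAZ10 was at 10617 to 13541 and JAZ12 at 6453 to 11729 on the antipodal arrays, against 9744 to 21434 and 7656 to 18073 on the synergid arrays. Of 21 gibberellin and brassinosteroid genes, 1 was bright: KAO (LOC4339885), a cytochrome P450 of gibberellin synthesis, with 43346, 16917 and 14155 on the antipodal arrays against 22726, 5831 and 3619 on the synergid arrays. Its antipodal arrays 2 and 3 lay below synergid array 1. Auxin had 2 of 58 bright, ARF22 and IAA17; ethylene had 1 of 12, EREBP1; and cytokinin had 1 of 31, AHP2. With 1 antipodal array left out these counts reached 4 for auxin (without array 1 or 2), 3 for ethylene (without array 2), and 2 each for cytokinin (without array 3) and the gibberellin list (without array 1). EREBP1 was at 14478 to 17587 on the antipodal arrays and 12721 to 15699 on the synergid arrays.

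Signalling proteins were represented by calcium sensors and 14-3-3 proteins. Calmodulins and calcium-dependent kinases had 13 of 77 genes bright (16.9%) on both cell types' arrays, led by the calmodulin-like genes CML15, CML18 and CML16. CML15 was at 16393 to 17599 on the antipodal arrays and 14316 to 16020 on the synergid arrays. The list of 14-3-3 proteins, which bind phosphorylated targets, and small GTPases had 6 of 16 genes bright (37.5%), against 5 on the synergid arrays. GF14F (LOC4333880) had 23426, 26190 and 36647 on antipodal arrays 1, 2 and 3, against 23187, 34493 and 23773 on synergid arrays 1, 2 and 3. Its groups overlapped. Ran, of nuclear transport, was at 15806 to 32128 and GF14E at 7714 to 10109 on the antipodal arrays, against 13658 to 23216 and 3109 to 4835 on the synergid arrays. ERG3 (LOC4336487), a gene first named in fungal elicitor responses, was at 26002, 27215 and 31641 on the antipodal arrays and at 36178, 26014 and 35068 on the synergid arrays. The symbols ARF (LOC4339157) and ANT (LOC4330539) are used for unrelated proteins, and the tables used here do not settle which is meant. ARF was at 50325 to 93915 on the antipodal arrays and 45537 to 60819 on the synergid arrays, and ANT at 19486 to 35671 on the antipodal arrays and 26202 to 31617 on the synergid arrays.

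Transporter lists were near the 8.82% of all genes, apart from metal transport, which lay below it. All of them lay below the 13.2% of named genes. Of 28 potassium transporter genes, 2 were bright on the antipodal arrays (7.14%) and 1 on the synergid arrays. HAK5 (LOC4326945), a high-affinity potassium transporter gene, had 50313, 67271 and 35831 on antipodal arrays 1, 2 and 3, against 36464, 39145 and 38023 on synergid arrays 1, 2 and 3. HAK7 (LOC4344235) had 21878, 10473 and 12275 on the antipodal arrays, against 10589, 3627 and 4505 on the synergid arrays. Both overlapped between the cell types, HAK7 only through synergid array 1. Sugar transport and sucrose metabolism had 5 of 45 genes bright (11.1%), close to the 8.82% of all genes. SWEET11 (LOC4346153), a sucrose exporter gene, had 28720, 20096 and 18707 on the antipodal arrays, against 24372, 21774 and 16206 on the synergid arrays. It overlapped between the cell types. SWEET4 was at 11510 to 24514 and SUT5, a sucrose importer gene, at 10339 to 13355 on the antipodal arrays, against 12185 to 15337 and 10812 to 17294 on the synergid arrays. Aquaporins had 2 of 25 bright, AQP (TIP1-1) and PIP1-2. Metal transport had 1 of 48 (2.08%), YSL12, at 5807 to 7529 on the antipodal arrays and 1402 to 3779 on the synergid arrays; COPT5.1 and COPT1 followed. Nitrogen transport and assimilation had 2 of 21 bright (9.52%). Of these, NIA1 (LOC4345795), a nitrate reductase gene, had 8757, 5891 and 5629 on the antipodal arrays, against 2570, 186 and 737 on the synergid arrays, and GLN1-2, a glutamine synthetase gene, was lower on the antipodal arrays, at 6246 to 7883 against 9146 to 12635 on the synergid arrays. OsAMT1 was the transporter marker of this list and was not bright on any antipodal array.

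Cell wall, storage and defence lists were near the background. Expansins and wall enzymes had 6 of 98 genes bright (6.12%) on the antipodal arrays, 10 with antipodal array 1 left out, and 11 on the synergid arrays, led by EXPB4, a beta-expansin gene that loosens walls, and AGP1, an arabinogalactan protein gene. EXPB4 was at 19109 to 41952 on the antipodal arrays and 19821 to 24350 on the synergid arrays. AGP1 (LOC4345858) had 17218, 38224 and 24566 on antipodal arrays 1, 2 and 3, against 16692, 14081 and 13450 on synergid arrays 1, 2 and 3, with no overlap. The starch synthesis list had 1 of 10 bright, D-enzyme (LOC4344192), also named DPE2. Its place in that list comes from a match by symbol and does not show a role in synthesis. Lipid transfer proteins had 1 of 5 bright, LTPL1. Cystatins and proteases had 2 of 22 bright (9.09%), cbp31 and FTSH4, and 4 with antipodal array 3 left out. The cystatin gene OC-VI (LOC4332021) was bright on antipodal arrays 1 and 2 only; it had 18470, 10823 and 3782 on the antipodal arrays, against 5285, 589 and 333 on the synergid arrays. Its antipodal array 3 lay below synergid array 1. Chitinases and defence proteins had 2 of 25 bright, both of the first members, FOR1 (LOC4343645) and NH2, and 4 with antipodal array 2 left out.

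Of the transcription factor lists, that of other transcription factors lay below the 8.82% of all genes. Those of MADS-box and homeobox genes lay near it. All 3 lay below the 13.2% of named genes. The MADS-box list had 3 of 31 genes bright (9.68%), the homeobox list 3 of 51 (5.88%), and other transcription factors 3 of 125 (2.40%), against 8.82% of all genes, and 0 of the 3 lists' members were in the shared top set. With antipodal array 1 or 2 left out, 5 of the 125 were bright. EREBP1, a factor counted with the ethylene genes, was in the shared top set, at ranks 430, 359 and 468. MADS24 (LOC4347517), a floral SEPALLATA-type gene, had 9538, 11407 and 19380 on antipodal arrays 1, 2 and 3, against 15623, 24575 and 18516 on synergid arrays 1, 2 and 3. MADS22 (LOC4330805) had 13462, 4651 and 5961 on the antipodal arrays, against 5759, 2023 and 1552 on the synergid arrays. Both overlapped between the cell types, MADS22 through synergid array 1. The gene LOC4346134, named MADS7, MADS45 and also AGL6, was at 5084 to 12978 on the antipodal arrays and 8309 to 18969 on the synergid arrays. Hox16 (LOC4330610), a leucine zipper homeobox gene, had 13392, 23715 and 13697 on the antipodal arrays, against 17946, 18419 and 19590 on the synergid arrays. CCCH zinc finger proteins, many of which bind RNA, had 8 of 50 genes bright on the antipodal arrays and 12 on the synergid arrays, led by OsC3H8, OsC3H37 and OsC3H33. OsC3H37 was at 8994 to 11595 on the antipodal arrays, against 14458 to 28103 on the synergid arrays, and OsC3H33 at 8915 to 10801 on the antipodal arrays, against 17880 to 23765 on the synergid arrays.

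In all, 25 of the 38 lists had a larger share of bright genes than the 8.82% of all genes, but 19 had a larger share than the 13.2% of named genes, from which the lists are drawn. Every list had at least 1 bright gene. Of the 67 named genes in the shared top set, 56 belonged to a list.

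The antipodal and synergid top sets were largely the same. They had 293 probe sets in common, 79.4% of the antipodal set and 75.1% of the synergid set, and 359 of the 369 antipodal members lay within the brightest 5% on all 3 synergid arrays. The 10 exceptions (2.71%) compare with 9 of 390 (2.31%) when synergid members were looked up on the antipodal arrays. None of the 10 was outside the brightest 5% on synergid array 1, 6 were outside it on synergid array 2 and 8 on synergid array 3, and all 10 were brighter on synergid array 1 than on the other synergid arrays.

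**Figure D4:**
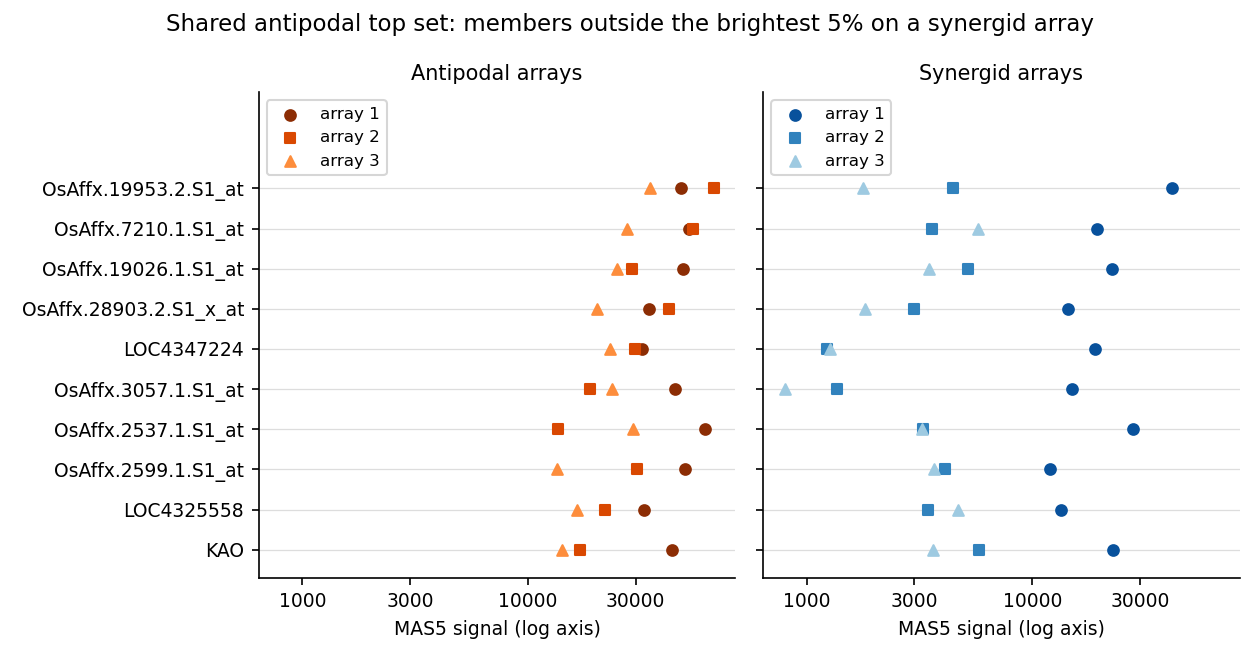
Signal (x axis, MAS5 units, log scale) of the 10 members of the shared antipodal top set that fell outside the brightest 5% on at least 1 synergid array, with the 3 antipodal arrays on the left and the 3 synergid arrays on the right; points are single arrays. Synergid array 1 lies to the right of synergid arrays 2 and 3 in all 10 rows.

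Of these 10, chosen by their synergid values, 7 were predicted-gene probe sets with no gene in the annotation used here. OsAffx.19953.2.S1_at had 47734, 66563 and 34618 on antipodal arrays 1, 2 and 3, against 41403, 4456 and 1773 on synergid arrays 1, 2 and 3. OsAffx.3057.1.S1_at had 44998, 18777 and 23535 on the antipodal arrays, against 14982, 1359 and 799 on the synergid arrays. LOC4347224 had 31872, 29734 and 22985 on the antipodal arrays, against 18994, 1225 and 1264 on the synergid arrays. KAO, described among the gibberellin genes, was the one member of the 10 with a name. The remaining members were OsAffx.7210.1.S1_at, OsAffx.19026.1.S1_at, OsAffx.28903.2.S1_x_at, OsAffx.2537.1.S1_at, OsAffx.2599.1.S1_at and LOC4325558.

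Antipodal array 2 had many of the same probe sets on top as arrays 1 and 3, but departed in signal levels and in the order over all probe sets. It shared 69.9% of its brightest 1% with array 1 and 74.8% with array 3, against 75.9% between arrays 1 and 3, whereas across all probe sets, which are not independent replicates, its rank correlation was 0.661 with array 1 and 0.670 with array 3, against 0.796 between arrays 1 and 3. No probe set of its brightest 1% was outside the brightest 5% on both other arrays; with array 1 as the odd one there were 6, and with array 3 there were 0. In the other direction, 2 of the 434 probe sets within the brightest 1% on arrays 1 and 3 (0.461%) were outside the brightest 5% on array 2, against 0 with array 1 and 0 with array 3 as the odd one. These 2, named after their values were seen, were Os.12625.1.S1_a_at, paired with several genes, and Os.12591.2.S1_x_at, with no gene. Os.12625.1.S1_a_at had 17214, 2853 and 26466 on antipodal arrays 1, 2 and 3, against 17543, 32394 and 19648 on synergid arrays 1, 2 and 3. Os.12591.2.S1_x_at had 14582, 2936 and 15675 on the antipodal arrays, against 22535, 13539 and 22432 on the synergid arrays.

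Along the ranking the difference changed sign more than once. The difference is log2(signal + 16) on array 2 minus the mean over arrays 1 and 3, with a pseudocount of 16. Its median was 1.44 for probe sets at mean ranks 1 to 30 on arrays 1 and 3 and 0.69 at 31 to 100. It was 0.01 from there to rank 572, -0.33 at 573 to 2862 and -0.17 at 2863 to 14314. Among dimmer probe sets it was 0.45 at 14315 to 28629 and 1.08 at 28630 to 57258. Over the shared top set the median was 0.26, with 259 of 369 members higher on array 2, and over all probe sets it was 0.48. Centring each array on its median adds -1.32 to every difference, which turns the shared top set's median to -1.05. The direction for the shared top set thus depends on the scaling. The first 20 probe sets had a median of 1.62 as deposited and 0.30 after centring. Of the first 25 named genes, 18 had their highest antipodal signal as deposited on array 2 and 5 their lowest. This count depends on the scaling too, and ranks within an array need not follow it. RPS21 ranked 14, 10 and 19 on antipodal arrays 1, 2 and 3, brightest on array 2. GOS2 ranked 10, 9 and 5 and HAK5 44, 58 and 90, brightest on another array. The array's high spike controls, median signal and 3′ to middle control ratios, and its low 3′ to 5′ ratio for GAPDH, are given above. Their part in these differences was not tested.

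**Figure D5:**
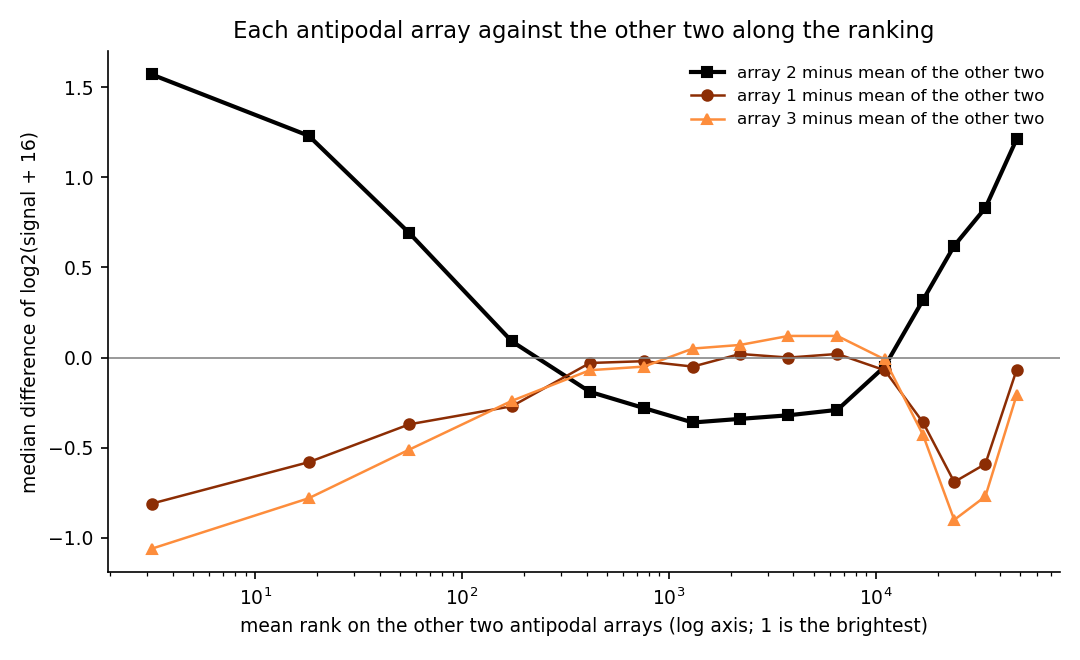
Median difference of log2(signal + 16) (y axis) between an antipodal array and the mean of the other two, for probe sets grouped by their mean rank on the other two (x axis, log scale, 1 is the brightest). Array 2 lies at 1.57 for ranks 1 to 10, at -0.36 for ranks 1001 to 1700 and at 1.21 for ranks 40001 to 57258. Arrays 1 and 3 lie at or below 0.12 throughout, and at -0.81 and -1.06 for ranks 1 to 10. Array 2 is part of the mean that each of them is compared with.

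Among the 516 named genes within the brightest 5% on array 2 or on both arrays 1 and 3, the largest positive differences were those of OsTPC1, Ub-CEP52-2, RPS21, HSP81-3, AQP, GOS2, salT and PETE, between 1.54 and 2.22. After median centring these differences were 0.23 to 0.91, and after quantile normalisation RPS21 was at 0.38, HSP81-3 at 0.12 and GOS2 at -0.10, so their size depends on the scaling. OsTPC1 (LOC4325272), a cation channel gene, had 1261, 7229 and 1870 on antipodal arrays 1, 2 and 3, against 3528, 3231 and 2431 on synergid arrays 1, 2 and 3. Ub-CEP52-2 (LOC4347896), another ubiquitin fusion gene, had 16043, 73476 and 23905 on the antipodal arrays, against 19047, 23749 and 19962 on the synergid arrays. AQP (LOC4331608), a water channel gene of the vacuole membrane, had 9910, 30196 and 8434 on the antipodal arrays, against 9903, 11436 and 15300 on the synergid arrays. PETE (LOC4339833), a plastocyanin gene, had 1742, 6161 and 2534 on the antipodal arrays, against 1187, 858 and 1858 on the synergid arrays. For OsTPC1, Ub-CEP52-2, AQP and PETE array 2 was the highest of all 6 arrays. For salT arrays 1 and 2 were alike and array 3 was low. The second, dimmer probe set of salT went the other way. It had 688, 9.53 and 138 on antipodal arrays 1, 2 and 3, a difference of -3.69.

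The largest negative differences, between -3.04 and -1.98, were those of MFP, BI-1, ceramidase, OsPP2C32, OsUGE-3, JAZ6, RSUS2 and BC1L9. MFP (LOC4328997), a multifunctional enzyme gene of fatty acid breakdown, had 6646, 718 and 5441 on antipodal arrays 1, 2 and 3, against 4757, 2902 and 3662 on synergid arrays 1, 2 and 3. BI-1 (LOC4328149), a suppressor of cell death, had 8904, 1328 and 12370 on the antipodal arrays, against 10678, 19124 and 13276 on the synergid arrays. OsUGE-3 (LOC4347638), a UDP-glucose epimerase gene, had 27397, 3333 and 9573 on the antipodal arrays, against 10329, 2032 and 1973 on the synergid arrays. RSUS2 (LOC4340386), a sucrose synthase gene, had 19314, 4088 and 13895 on the antipodal arrays, against 9676, 5852 and 6031 on the synergid arrays. For each of the genes with these largest negative differences except OsUGE-3, array 2 lay below all 5 other arrays. For OsUGE-3 the synergid arrays 2 and 3 were lower still.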

How the data were processed

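The authors deposited 1 table of linear signal intensity per probe set for the 6 arrays, made with GCOS 2.0 and MAS5 per the submitters' processing notes. All 6 columns were matched to samples by name. Of 57381 rows, 123 control probe sets were left out, and 57258 were ranked within each array with pandas 2.3.3 in Python 3.11.15; figures were drawn with matplotlib 3.10.9. No test was made, because ranks choose the members and 1 array has no replicate. Precision is limited by 3 arrays per cell type.

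Probe sets were named from the platform annotation, updated through a RefSeq gene table of assembly ASM3414082v1: 22436 had 1 gene, 95 several (left unnamed) and 34727 none here. All 17905 genes matched, and 2450 had an informative name. No sequences or coordinates were used, so the planned description of sequence features was not run.

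The members and lists (38 of families, 6 of markers, all matched by symbol) were chosen with earlier results of these data known. Named were the first 25 named genes by mean antipodal rank, the 3 markers, at most 3 first members per list, the first 15 locus-only genes, the first 10 probe sets without a gene, the 8 most different named genes on array 2 in each direction, and 2 items on each side of the threshold; exceptions are marked. The ranking functions were tested on simulated data. Alternatives varied the class widths, the order, the probe set per gene, the pseudocount, the scaling and the arrays used.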

Additional observations from a re-analysis of the deposited data

How the results depend on the processing

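No paired analysis was possible because the results are ranks within single arrays and come from no test. The share of an array's brightest 1% in the shared top set, 64.5%, was 69.9% to 75.9% when 1 antipodal array was left out, since fewer arrays have to share a probe set, and 59.1% for the brightest 0.5%; the brightest 2% gave 63.9% and leaving out suffixed probe sets 64.8%. The mean share of signal in the brightest 1%, 33.0%, was 30.4% to 34.6% with 1 array left out, 30.9% without suffixed probe sets and 62.6% for the brightest 5%, a wider class. Of the first 25 named genes, 22 to 23 stayed with 1 array left out, 24 by mean log2 signal, 23 by the least bright rank and 18 without suffixed probe sets, but 15 when a gene was given the median over its probe sets: EF-1-alpha, Eno1, GOS2, HAK5, HSP81-3, PDC, QM1, RPS21, RPS3A and aldolase then left. The number of lists above all genes, 25, was 23 to 24 with 1 array left out, 20 at the brightest 1%, 26 at the brightest 10% and 24 with the median over probe sets. These totals hide changes of side: 34, 31 and 35 of the 38 lists stayed on their side without array 1, 2 and 3, but 23 at the brightest 1%, 33 at the brightest 10% and 35 with the median over probe sets. The median difference of array 2 over the shared top set, 0.26, was 0.26 with pseudocounts of 1 and 64, 0.05 after quantile normalisation and -1.05 after median centring. For the first 20 probe sets it was 1.62 with either pseudocount, 0.10 after quantile normalisation, which gives all arrays 1 distribution, and 0.30 after median centring. Of 64 values for the 16 genes that departed most on array 2, 62 moved by less than the spread between the choices of odd array. That spread includes the gene's own large difference on array 2, so the count does not show that these differences are stable. Median centring took the 8 positive ones to 0.23 to 0.91 and the negative ones further down, MFP from -3.04 to -4.35. Under quantile normalisation HSP81-3 was at 0.12 and GOS2 reversed, at -0.10. The share of the antipodal top set in the synergid one, 79.4%, was 74.0% to 74.1% with 1 antipodal array left out and 80.8% to 84.0% with 1 synergid array left out, a choice made after seeing the data. Of 228 recounted list totals, 150 were within 1.5 times the reported count.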
